A study of Mus musculus with 12 samples.

Results

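The genes described here encode the nuclear subunits of respiratory complexes II, III and IV in MLE12 cells. They were the genes whose symbol begins with Uqcr or with Cox followed by 4 to 8, together with Sdha, Sdhb, Sdhc, Sdhd and Cyc1, on array rows that the platform annotation ties to exactly 1 symbol. That gave 30 genes of 22180 named genes: 4 of complex II, 9 of complex III with the pseudogene Uqcrh-ps1 among them, and 17 listed under complex IV. A gene was read from its brightest row by mean over 12 arrays, and Cox5b and Cox7b had a second row each. Cox6c and Uqcr10 had no row with 1 symbol and were not analysed here.

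MLE12 is a mouse distal lung epithelial line from a tumour driven by the SV40 large T antigen under a surfactant protein C promoter. The tested groups received lentiviral pLKO.1 shRNA against the long noncoding RNA NANCI, which lies beside Nkx2-1, or against the RNA named LL34. Each had its own group infected with a scrambled shRNA, so that all 4 groups of 3 arrays carried the vector. Infection lasted 12 hours at 60% confluency and RNA was collected after 65 hours of subculture. The labels call the replicates biological but mention no separate infections, and p-values thus reflect only how far these arrays scatter, which may be technical.

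Complex II (succinate dehydrogenase) passes electrons from succinate to ubiquinone and is also an enzyme of the citric acid cycle. Complex III (the cytochrome bc1 complex) carries them from ubiquinol to cytochrome c, and complex IV (cytochrome c oxidase) hands them to oxygen. The last 2 pump protons. Most subunits come from nuclear genes, while cytochrome b and the catalytic core of complex IV are encoded in mitochondrial DNA. Several complex IV subunits have paired forms, a widespread one and one kept to heart and skeletal muscle (Cox6a2, Cox7a1, Cox8b), testis (Cox6b2, Cox7b2, Cox8c) or, for Cox4i2, mainly lung.

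Values are log2 signals, and the median over rows lay at 6.84 to 6.88 on the 6 NANCI-set arrays but at 6.54 to 6.61 on those for LL34. That gap has the look of separate normalization, so each change was taken within its own set. An alternative that takes all 6 scrambled arrays as 1 group mixes the sets as deposited. Its changes thus also hold this gap, which tends to raise those after NANCI shRNA and lower those after LL34 shRNA. The lowest mean correlation of an array with its group was 0.988, for LL34 scrambled replicate 3. Sfta3-ps, the gene that the gene table gives as Nanci, read 8.75, 9.19 and 9.01 in cells given NANCI shRNA, against 12.05, 11.83 and 11.81 in their scrambled cells. In LL34 shRNA cells Sfta3-ps read 11.28, 11.54 and 11.19, against 11.99, 12.09 and 11.95 in scrambled cells, and it was called lower there too (−0.67, limma adjusted p = 0.00284). The LL34 RNA was not analysed here. Of 12 lung epithelial markers, 7 lay above the median row of 6.72, among them Nkx2-1, Sftpb, Sftpc and Cdh1, while Sftpa1, Sftpd, Lamp3, Epcam and Krt18 lay below it. So did 5 of 8 fibroblast, 11 of 23 muscle, 1 of 6 leukocyte and 1 of 6 endothelial genes lie above it. In the epithelial list 1 rose and 4 fell after NANCI shRNA, and 2 rose and 4 fell after LL34 shRNA. The shares called were 41.7% against 26.8% of all named genes after NANCI shRNA, and 50% against 20% after LL34 shRNA.

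Subunit RNAs rose after NANCI shRNA mainly in complexes II and III, while Uqcrb, Uqcrq, Cox5a and Cox6a2 fell, and after LL34 shRNA the called genes all rose. After NANCI shRNA 9 of 30 genes rose and 4 fell (limma, adjusted p under 0.05), a call rate of 43.3% against 26.8% of all named genes, of which 13.2% rose and 13.6% fell. Complex III held 8 of these calls among its 9 genes, complex II held 2 of 4 and complex IV 3 of 17. After LL34 shRNA 7 of 30 rose and none was called lower, or 23.3% against 20% of all named genes, of which 9.77% rose and 10.3% fell, so the share called lay near the background. At an unadjusted p under 0.05 the LL34 comparison held 14 of 30 genes, against 30.6% of named genes. Called changes of at least 0.5 numbered 7 after NANCI shRNA (11.2% of named genes) and 3 after LL34 shRNA (6.67%). The median change was 0.11 over the 30 genes and 0.004 over all named genes after NANCI shRNA, and 0.09 and −0.02 after LL34 shRNA. The 3 shRNA arrays lay apart from the 3 scrambled arrays in 17 of 30 genes in each comparison, against 40.5% of named genes for NANCI and 35.3% for LL34. In bulk RNA, fewer cells with a transcript and less of it per cell cannot be told apart.

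**Figure D1:**
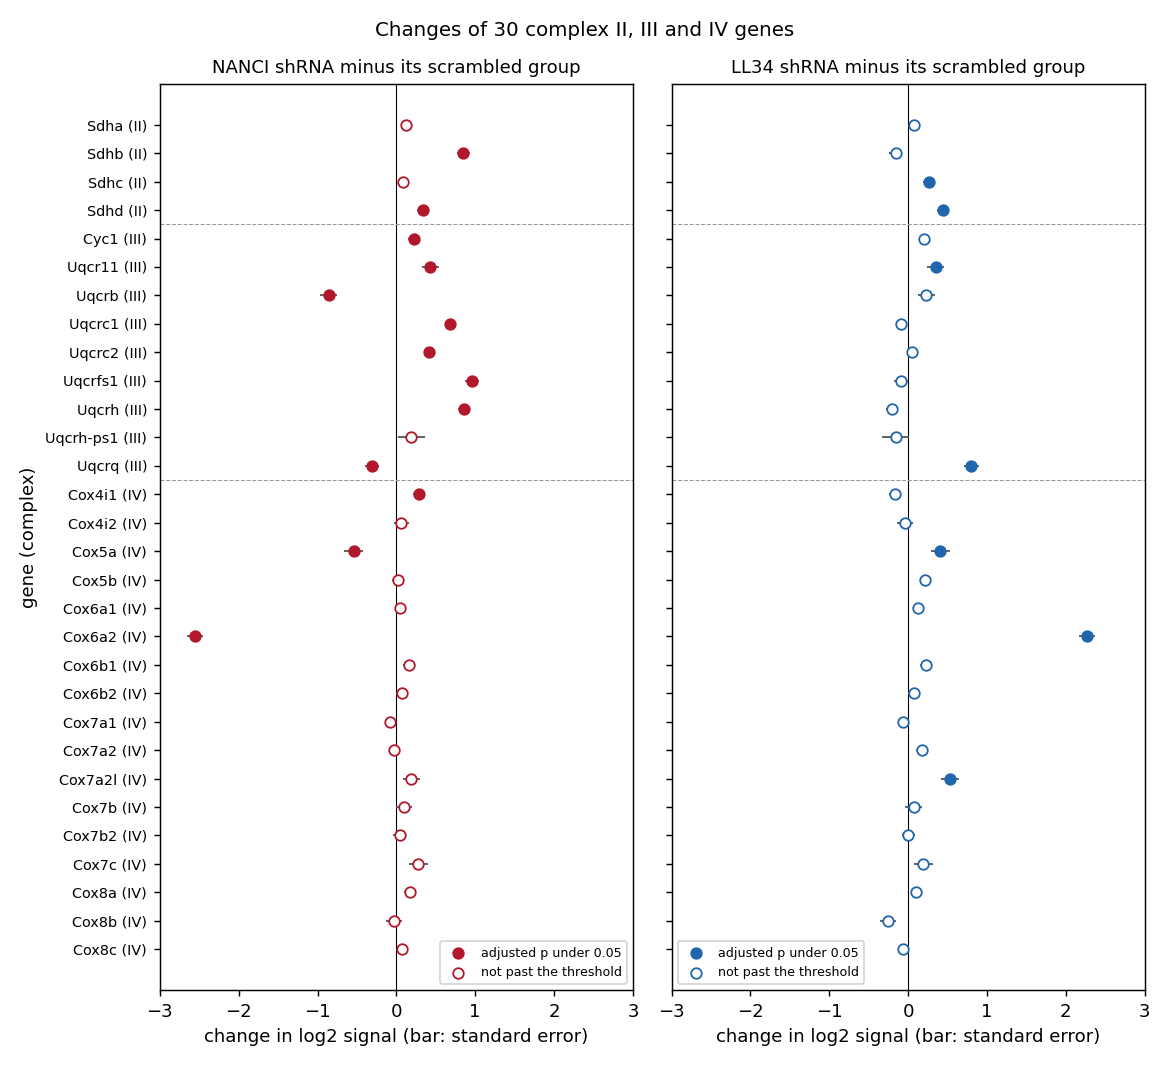
Change in log2 signal of 30 genes after NANCI shRNA (left) and after LL34 shRNA (right), each against its own scrambled group, with the standard error of the fit as a bar and filled points for adjusted p under 0.05. Most filled points of complex III lie right of 0 on the left panel, and Cox6a2 lies at −2.55 on the left and 2.27 on the right.

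Nuclear core genes of complex III rose after NANCI shRNA. The calls of Uqcrfs1, Uqcrc1 and Uqcrc2, but not that of Cyc1, held under all 21 alternatives. Uqcrfs1, the Rieske iron-sulfur protein that takes the first electron from ubiquinol, read 9.19, 8.96 and 8.97 in NANCI shRNA cells, against 8.08, 8.05 and 8.11 in scrambled cells. The groups did not overlap, and the change was 0.96 (SE 0.0847, limma adjusted p = 1.41e-05), or 195% of the scrambled level. The 3 NANCI shRNA arrays also stood above all LL34 arrays, which ran from 8.15 to 8.44.

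Uqcrc1 and Uqcrc2, the large core proteins on the matrix side, rose together. Uqcrc1 read 11.89, 11.69 and 11.67 in NANCI shRNA cells, against 11.08, 11.05 and 11.09 in scrambled cells (0.68, SE 0.0675, limma adjusted p = 3.32e-05). Uqcrc2 read 12.02, 12.03 and 12.01, against 11.61, 11.56 and 11.64 in scrambled cells (0.42, SE 0.0528, limma adjusted p = 0.000167). Neither gene had overlapping groups. Cyc1, cytochrome c1, which hands the electron on to cytochrome c, moved least of the called genes: 11.69, 11.57 and 11.53 in NANCI shRNA cells, against 11.33, 11.29 and 11.50 in scrambled cells (0.22, SE 0.0676, limma adjusted p = 0.0416). Its call was lost under 14 of 21 alternatives, among them leaving out NANCI shRNA replicate 1 (0.152) or 2 (0.0728), NANCI scrambled replicate 1 (0.131) or 2 (0.138), LL34 shRNA replicate 1 (0.0618), 2 (0.0603) or 3 (0.0591) or LL34 scrambled replicate 1 (0.0521) or 2 (0.0611), all adjusted p.

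The small accessory subunits of complex III split. Uqcrh, the acidic hinge protein near cytochrome c1, read 9.95, 10.01 and 9.73 in NANCI shRNA cells, against 9.01, 9.08 and 9.03 in scrambled cells (0.86, SE 0.0727, limma adjusted p = 1.11e-05). Uqcr11, the smallest subunit, read 9.93, 9.95 and 9.74, against 9.47, 9.61 and 9.24 in scrambled cells (0.43, SE 0.105, limma adjusted p = 0.0128). Both rose without overlap. The NANCI scrambled arrays were the low ones of all 12 for Uqcrh, and against all 6 scrambled arrays its change was 0.31 (adjusted p = 0.449). That change was 0.77 for Uqcr11 (adjusted p = 0.0192), whose adjusted p in its own set was 0.0508 and 0.0515 without NANCI shRNA replicate 1 or 2 and 0.0504 without NANCI scrambled replicate 3.

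Uqcrb and Uqcrq fell. Uqcrb, a ubiquinone-binding protein subunit needed for assembly, read 11.63, 11.79 and 11.33 in NANCI shRNA cells, against 12.58, 12.29 and 12.46 in scrambled cells. The groups lay apart and the change was −0.86 (SE 0.11, limma adjusted p = 0.00019), which left 55.1% of the scrambled level. Uqcrq, a small subunit beside cytochrome b, read 8.60, 8.51 and 8.38 in NANCI shRNA cells, against 8.78, 8.72 and 8.92 in scrambled cells (−0.31, SE 0.0926, limma adjusted p = 0.0362). That call was lost when NANCI shRNA replicate 2 (0.0812) or 3 (0.132), NANCI scrambled replicate 1 (0.0732) or 3 (0.137) or LL34 shRNA replicate 1 (0.0513) was left out. It was also lost with arrays centred on their medians (0.0574) and under a replicate block (0.126), and the change was 0.25 (adjusted p = 0.563) against all 6 scrambled arrays. The pseudogene Uqcrh-ps1 was dim and measured 0.19 (adjusted p = 0.581). Uqcrb and Uqcrh have near-identical pseudogene copies in the mouse genome, and what these copies add to the rows was not tested.

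**Figure D2:**
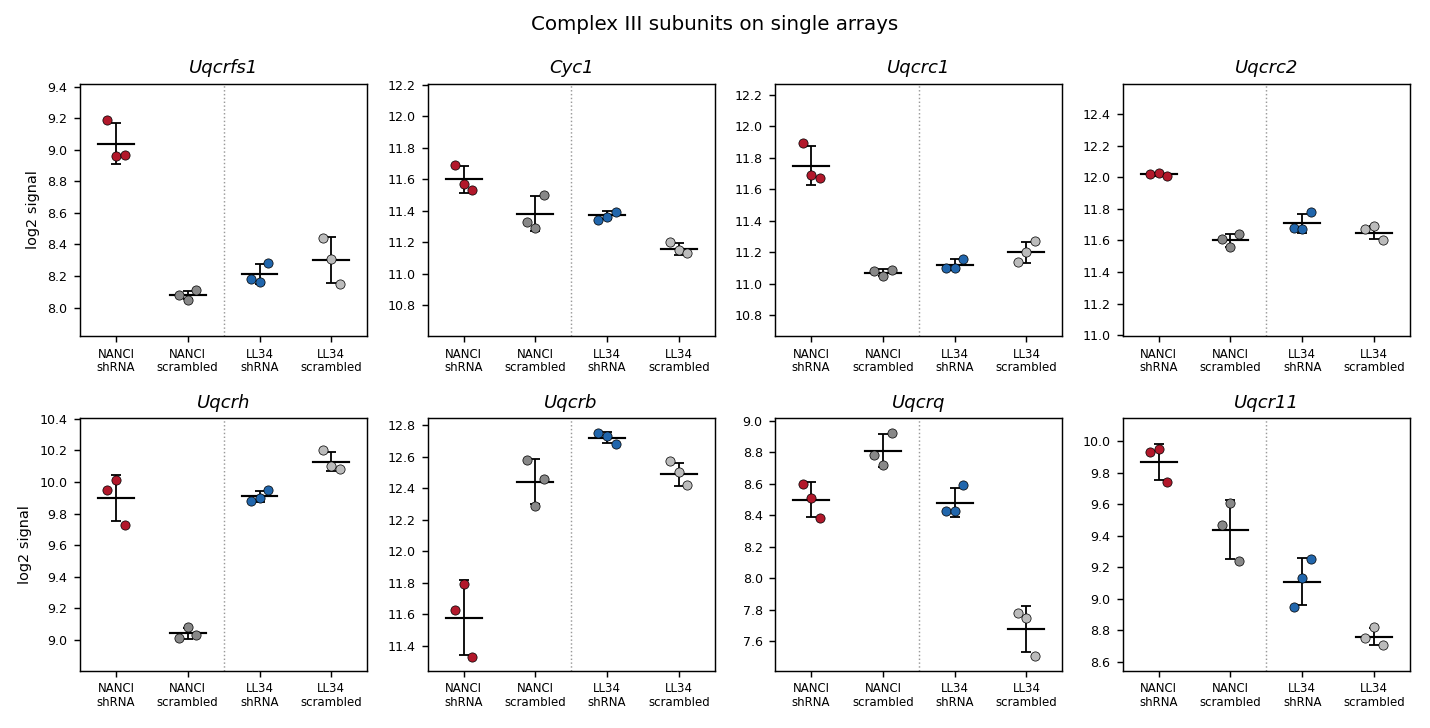
Log2 signal of 8 complex III subunits on each array, with group means and SD (3 arrays per group). The axes differ between panels. On the deposited values Uqcrfs1, Uqcrc1 and Uqcrc2 are high in the NANCI shRNA group alone, and Uqcrb is low there. Uqcrh is low in NANCI scrambled cells alone and Uqcrq in LL34 scrambled cells alone. The nearest arrays for Uqcrc2 are replicate 3 of NANCI shRNA (12.01, array median 6.88) and of LL34 shRNA (11.78, array median 6.58). That lead is smaller than the gap between the 2 medians.

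After LL34 shRNA only Uqcrq and Uqcr11 were called in complex III. Uqcrq read 8.43, 8.43 and 8.59 in LL34 shRNA cells, against 7.78, 7.75 and 7.51 in scrambled cells (0.80, SE 0.0926, limma adjusted p = 0.000187), with no overlap. The LL34 scrambled arrays were the low ones of all 12, and against all 6 scrambled arrays the change was 0.24 (adjusted p = 0.573). Uqcr11 read 8.95, 9.13 and 9.25, against 8.75, 8.82 and 8.71 in scrambled cells (0.35, SE 0.105, limma adjusted p = 0.0429). That call was lost under 13 of 21 alternatives, with a change of 0.01 against all 6 scrambled arrays (0.97) and adjusted p of 0.113 and 0.166 without LL34 shRNA replicate 2 or 3, 0.0862, 0.072 and 0.108 without LL34 scrambled replicates 1, 2 and 3, 0.0572 and 0.0558 without NANCI shRNA replicate 1 or 2 and 0.0597 without NANCI scrambled replicate 1. The core genes measured −0.09 for Uqcrfs1 (adjusted p = 0.56), −0.09 for Uqcrc1 (0.478), 0.05 for Uqcrc2 (0.594) and 0.20 for Cyc1 (0.0656). Uqcrh measured −0.21 (0.073) and Uqcrb 0.23 (0.215).

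The membrane anchor Sdhd rose in both knockdowns, while the iron-sulfur subunit Sdhb rose after NANCI shRNA and was not called after LL34 shRNA. Sdhb, which links the flavoprotein to the quinone site, read 10.49, 10.24 and 10.27 in NANCI shRNA cells, against 9.39, 9.64 and 9.41 in scrambled cells (0.85, SE 0.0811, limma adjusted p = 2.42e-05). In the LL34 set it read 9.48 on each of the 3 shRNA arrays, against 9.61, 9.66 and 9.66 in scrambled cells (−0.16, SE 0.0811, limma adjusted p = 0.241). Exactly equal values on a pair of LL34 shRNA arrays occurred for Sdha, Sdhb and Cox8c, so the SDs of these genes there may be too small.

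Sdhd, which with Sdhc holds the complex in the inner membrane, read 11.06, 11.04 and 11.12 in NANCI shRNA cells, against 10.65, 10.76 and 10.80 in scrambled cells (0.34, SE 0.0772, limma adjusted p = 0.00875). After LL34 shRNA it read 11.21, 11.03 and 11.23, against 10.64, 10.68 and 10.85 in scrambled cells (0.44, SE 0.0772, limma adjusted p = 0.00268). Both changes went without overlap, and both calls held under all 21 alternatives. Sdhc read 11.05, 11.06 and 10.86 in NANCI shRNA cells, against 10.86, 10.88 and 10.96 in scrambled cells, so the groups overlapped (0.09, adjusted p = 0.526).

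In the LL34 set Sdhc read 10.76, 10.70 and 10.82 in shRNA cells, against 10.50, 10.58 and 10.42 in scrambled cells (0.26, SE 0.0714, limma adjusted p = 0.0288). The call was lost without LL34 shRNA replicate 1 (0.0842) or 3 (0.11) or LL34 scrambled replicate 1 (0.0643) or 3 (0.0852), and the change was 0.06 (adjusted p = 0.744) against all 6 scrambled arrays. Sdha, the flavoprotein that oxidizes succinate, read 11.23, 11.18 and 11.19 in NANCI shRNA cells, against 11.14, 11.05 and 11.05 in scrambled cells (0.12, adjusted p = 0.136). In LL34 shRNA cells it read 11.17, 11.13 and 11.13, against 11.10, 11.08 and 11.04 in scrambled cells (0.07, adjusted p = 0.461). These small gaps had no overlap but missed the threshold.

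**Figure D3:**
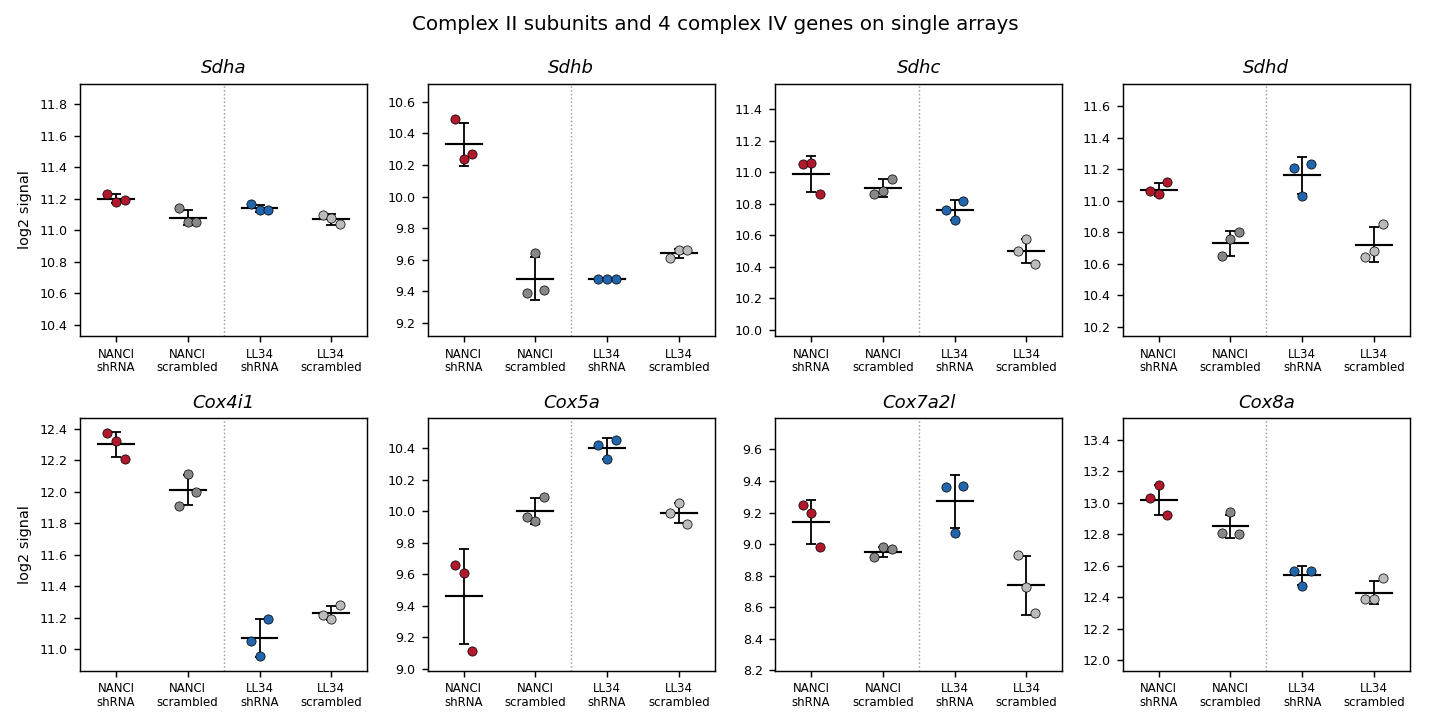
Log2 signal of the 4 complex II subunits and of Cox4i1, Cox5a, Cox7a2l and Cox8a on each array, with group means and SD (3 arrays per group). The axes differ between panels. Sdhb is high in the NANCI shRNA group, Sdhd is above its scrambled group in both sets, and Cox5a is low after NANCI shRNA and high after LL34 shRNA.

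Promoters of 20 of the 30 genes were in the RefSeq table of GRCm38.p6, and the 250 bases before the start given there were searched on both strands. For Cox5a and Cox7a2 that window lies inside the span of the gene in the gene table. The ETS letters CCGGAAG, which GABP can bind, stood in 5 of 20 windows (25%), against 6.91% of 32851 promoters of the table. The 5 were Sdhd, Uqcrh and Uqcr11, which rose after NANCI shRNA, and Cox6a1 and Cox6b1, which were not called. Sdhb, Uqcrc1 and Uqcrfs1, which also rose after NANCI shRNA and had a window, lacked these letters. The NRF1 core TGCGCA was in 4 (20%, against 6.43%), the ATF4 core TGATGCA in 0 (against 2.68%) and the E-box CANNTG in 12 (60%, against 66.2%). The promoter table had no entry for Cox4i1, Cox4i2, Cox6a2, Cox8c, Cyc1, Sdhc, Uqcrb, Uqcrc2, Uqcrh-ps1 and Uqcrq. A match is a run of letters and not a shown binding site. The windows of the 3 risen genes with the ETS letters follow, written 5′ to 3′ on the gene's strand with that match, or its reverse complement, in capitals: Sdhd at chr9:50603850-50604099, Uqcrh at chr4:116075071-116075320 and Uqcr11 at chr10:80406822-80407071, all on the minus strand.
Sdhd: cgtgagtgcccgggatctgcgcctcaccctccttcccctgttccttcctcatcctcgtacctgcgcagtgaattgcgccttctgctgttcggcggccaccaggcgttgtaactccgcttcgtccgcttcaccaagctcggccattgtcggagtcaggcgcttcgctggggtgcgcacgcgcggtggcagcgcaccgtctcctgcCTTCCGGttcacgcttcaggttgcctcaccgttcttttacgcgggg
Uqcrh: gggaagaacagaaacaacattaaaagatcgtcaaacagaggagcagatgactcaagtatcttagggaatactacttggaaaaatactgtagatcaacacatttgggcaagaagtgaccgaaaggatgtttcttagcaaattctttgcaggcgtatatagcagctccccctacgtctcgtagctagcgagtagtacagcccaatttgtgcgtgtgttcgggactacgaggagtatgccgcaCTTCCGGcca
Uqcr11: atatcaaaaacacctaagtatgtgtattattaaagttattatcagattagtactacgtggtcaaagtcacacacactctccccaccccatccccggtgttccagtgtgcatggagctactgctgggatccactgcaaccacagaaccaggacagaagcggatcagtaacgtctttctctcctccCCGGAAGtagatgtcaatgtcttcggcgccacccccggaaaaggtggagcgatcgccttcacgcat
In Sdhd the match begins 46 bases before the start, in Uqcrh 10 and in Uqcr11 66.

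Cox6a2 made the largest change of the 30 genes in both comparisons, in opposite directions. It encodes the heart and skeletal muscle form of subunit 6a, a regulatory subunit on the outside of complex IV, and lies at chr7:128205435-128206366 of GRCm38.p6. It read 7.87, 8.23 and 7.81 in NANCI shRNA cells, against 10.50, 10.47 and 10.58 in scrambled cells, which left 17.1%. It read 10.80, 10.91 and 10.74 in LL34 shRNA cells, against 8.59, 8.52 and 8.53 in scrambled cells, a 4.82-fold rise. Low arrays were thus those of NANCI shRNA and LL34 scrambled cells, and high arrays those of NANCI scrambled and LL34 shRNA cells.

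The changes of Cox6a2 were −2.55 (SE 0.0985, limma adjusted p = 1.3e-07) and 2.27 (SE 0.0985, limma adjusted p = 4.09e-07). The scrambled groups themselves lay 1.97 apart, with the LL34 group lower (LL34 minus NANCI scrambled −1.97, adjusted p = 6.34e-07). Against all 6 scrambled arrays as 1 group both calls were lost, at −1.56 (adjusted p = 0.0577) and 1.28 (adjusted p = 0.127). Cox6a1, the widespread form, read 13.65, 13.66 and 13.66 in NANCI shRNA cells, against 13.54, 13.61 and 13.66 in scrambled cells (0.05, SE 0.0525, adjusted p = 0.599). In the LL34 set it read 13.36, 13.34 and 13.40 in shRNA cells, against 13.25, 13.19 and 13.27 in scrambled cells (0.13, SE 0.0525, adjusted p = 0.124).

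**Figure D4:**
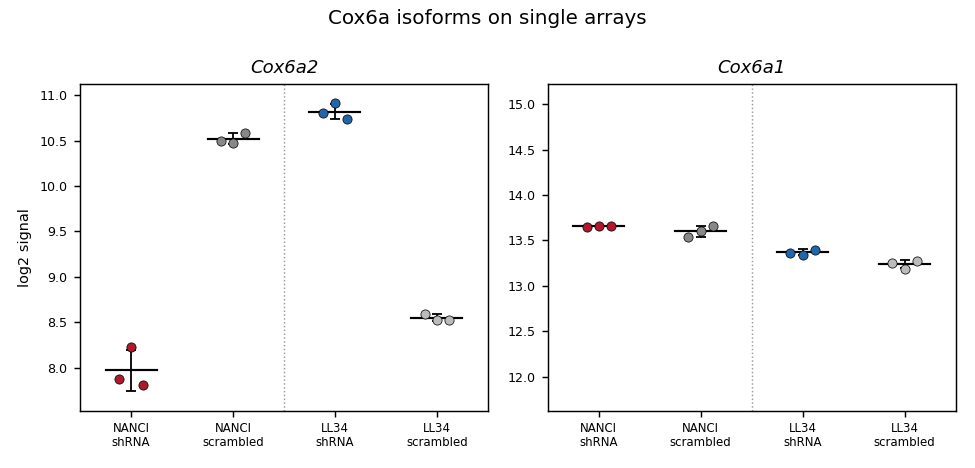
Log2 signal of Cox6a2 and Cox6a1 on each array, with group means and SD (3 arrays per group). Both axes span the same range of log2 units. The NANCI shRNA and LL34 scrambled arrays of Cox6a2 lie between 7.81 and 8.59, and all other arrays at 10.47 or above, while Cox6a1 stays between 13.19 and 13.66.

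The muscle forms of other subunits were called in neither knockdown. Cox7a1 read 6.24, 6.34 and 6.25 in NANCI shRNA cells, against 6.34, 6.41 and 6.33 in scrambled cells (−0.08, adjusted p = 0.454), and measured −0.07 (0.547) after LL34 shRNA. Cox8b measured −0.03 (0.921) after NANCI shRNA. After LL34 shRNA it read 5.84, 5.81 and 5.80, against 6.15, 6.04 and 6.02 in scrambled cells (−0.25, adjusted p = 0.131). Among 23 other skeletal and cardiac muscle genes, 1 rose and none was called lower after NANCI shRNA, and none rose and 2 were called lower after LL34 shRNA. These shares, 4.35% and 8.7%, lie below the 26.8% and 20% of named genes called. The list's mean level ran from 6.87 to 7.0 in NANCI shRNA cells, from 6.73 to 6.95 in their scrambled cells, from 6.38 to 6.41 in LL34 shRNA cells and from 6.41 to 6.59 in theirs. Tnnt2, cardiac troponin T, measured 0.90 (adjusted p = 0.000713) and −0.73 (0.00412), the opposite order to Cox6a2. The part of muscle gene RNA in the Cox6a2 changes was not tested.

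Of the 3 nearest measured genes on each side of Cox6a2, 1 in all was called after each shRNA. Over all named genes 26.8% were called after NANCI shRNA and 20% after LL34 shRNA. The gene table lets its end overlap that of Itgad, an integrin subunit, which measured −0.09 (adjusted p = 0.623) after NANCI shRNA and 0.05 (0.819) after LL34 shRNA. Itgax, another integrin subunit, measured −0.06 (0.591) and −0.08 (0.456), and 4931431B13Rik fell after NANCI shRNA (−0.43, 0.00283) and measured 0.19 (0.153) after LL34 shRNA, with a gap of −1.08 between the scrambled groups, the same signs as Cox6a2. On the other side Tgfb1i1, a focal adhesion protein, measured −0.02 (0.875) and −0.14 (0.163), and Slc5a2, a glucose transporter, 0.08 (0.646) and −0.08 (0.614). Rgs10, a regulator of G-protein signalling, measured −0.09 (0.367) after NANCI shRNA and fell after LL34 shRNA (−0.28, 0.00774).

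Genes most like Cox6a2 over the 12 arrays, after the mean of each set was taken off, were Herpud1 (an ER-stress protein), Psph (phosphoserine phosphatase), Aldh1l2 (a mitochondrial folate enzyme), Pck2 (mitochondrial phosphoenolpyruvate carboxykinase) and Vldlr (a lipoprotein receptor). Pearson's r ran from 0.995 to 0.998, a description over arrays that share 4 groups. Their changes after NANCI and LL34 shRNA were −0.78 and 0.73 for Herpud1, −1.44 and 1.33 for Psph, −2.50 and 2.11 for Aldh1l2, −1.55 and 1.34 for Pck2 and −2.25 and 1.74 for Vldlr. In these 5 genes, too, the LL34 scrambled group lay below the NANCI scrambled group, by a change of −0.83 for Herpud1 to −1.84 for Aldh1l2.

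Among widespread complex IV subunits, Cox5a moved in both knockdowns. Cox5a, which binds the matrix side of the core, read 9.66, 9.61 and 9.11 in NANCI shRNA cells, against 9.96, 9.94 and 10.09 in scrambled cells (−0.54, SE 0.122, limma adjusted p = 0.00867), where replicate 3 was the lowest. It read 10.42, 10.33 and 10.45 in LL34 shRNA cells, against 9.99, 10.05 and 9.92 in scrambled cells (0.41, SE 0.122, limma adjusted p = 0.0416). Both changes were without overlap, and the NANCI call held under all 21 alternatives. The LL34 call was lost without any 1 array of the LL34 set (adjusted p from 0.0691 to 0.129) and without NANCI scrambled replicate 1 (0.0579), 2 (0.0531) or 3 (0.0528).

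Cox4i1, the common form of the largest nuclear subunit, read 12.37, 12.32 and 12.21 in NANCI shRNA cells, against 11.91, 12.11 and 12.00 in scrambled cells (0.29, SE 0.0766, limma adjusted p = 0.0184). Its call was lost without NANCI shRNA replicate 1 (0.0732) or 2 (0.058) or NANCI scrambled replicate 1 (0.0782) or 3 (0.0539), and after quantile normalization of the 12 arrays together (0.23, adjusted p = 0.0692). After LL34 shRNA it read 11.05, 10.96 and 11.19, against 11.22, 11.19 and 11.28 in scrambled cells (−0.17, adjusted p = 0.184). Against all 6 scrambled arrays the NANCI change was 0.68 (adjusted p = 0.0464), over 1.5 times as large, but that value also holds the gap in level between the sets. Its partner Cox4i2 read 7.05, 7.30 and 6.87 in NANCI shRNA cells, against 6.96, 7.06 and 7.0 in scrambled cells (0.06, adjusted p = 0.764), and measured −0.04 (0.868) after LL34 shRNA.

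Cox7a2l, which joins complexes III and IV into supercomplexes, rose after LL34 shRNA. It read 9.36, 9.07 and 9.37 in LL34 shRNA cells, against 8.93, 8.73 and 8.56 in scrambled cells (0.53, SE 0.111, limma adjusted p = 0.0076), and the call held under all 21 alternatives. After NANCI shRNA it read 9.25, 9.20 and 8.98, against 8.92, 8.98 and 8.97 in scrambled cells (0.19, adjusted p = 0.32). Its relative Cox7a2, the widespread form of subunit 7a, measured −0.03 (0.842) and 0.17 (0.117), with all LL34 shRNA arrays (11.75 to 11.89) above the scrambled ones (11.64 to 11.69).

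The other 8 complex IV genes were called in neither knockdown. Cox5b, a zinc-binding subunit on the matrix side, measured 0.02 (adjusted p = 0.934) after NANCI shRNA and 0.22 (0.0584) after LL34 shRNA, and 0.15 (0.334) and 0.24 (0.0955) on its second row. Cox6b1, which bridges the monomers of the dimer, measured 0.16 (0.184) and 0.23 (0.0705), and its testis form Cox6b2 measured 0.07 (0.643) and 0.07 (0.626). Cox7b, a small membrane subunit, measured 0.10 (0.629) and 0.07 (0.736), with 0.36 (0.395) and 0.33 (0.439) on its second row, and its testis form Cox7b2 0.04 (0.855) and 0.00 (0.989).

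Cox7c, another small membrane subunit, measured 0.28 (adjusted p = 0.146) and 0.19 (0.373). Cox8a, the common form of subunit 8, read 13.03, 13.11 and 12.92 in NANCI shRNA cells, against 12.81, 12.94 and 12.80 in scrambled cells (0.17, 0.118), and measured 0.10 (0.397) after LL34 shRNA. The testis form Cox8c measured 0.07 (0.606) and −0.06 (0.662). Cox6b2, Cox7a1, Cox7b2, Cox8b, Cox8c and Uqcrh-ps1 were the 6 genes whose mean lay below the median row, and whether they stood above background is not given in the sources used here.

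No array was common to the 2 knockdown comparisons, so the difference of their changes was tested directly. It passed in 10 of 30 genes, or 33.3% against 24.4% of named genes (12% positive and 12.3% negative). Uqcrh, Uqcrfs1, Sdhb, Uqcrc1, Cox4i1 and Uqcrc2 had the more positive change after NANCI shRNA, by 0.36 to 1.07, and Cox6a2, Uqcrq, Uqcrb and Cox5a the more negative one, by −4.82 to −0.95. Adjusted p ran from 2.01e-08 to 0.0112 in limma, and the same 10 genes passed under all 19 alternatives for this comparison. Each of the 19 keeps the own scrambled group of both sets. They therefore cannot show how far a difference rests on a gap between the scrambled groups. Cox5a, Cox6a2 and Uqcrq were called in opposite directions in the 2 knockdowns, 3 of 30 genes against 5.52% of named genes, and Sdhd and Uqcr11 rose in both. For Sdhd the difference measured −0.10 (SE 0.109, adjusted p = 0.644) and for Uqcr11 0.08 (SE 0.149, adjusted p = 0.806).

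The scrambled groups differed in these genes too, and set and group cannot be told apart there. LL34 scrambled cells were called different from NANCI scrambled cells in 15 of 30 genes, against 60.4% of named genes, 2 higher and 13 lower. The background was 9.9% higher and 50.5% lower, and the median over all named genes was itself −0.227. Quantile normalization of the 12 arrays together turned the split into 5 higher and 9 lower, and centring each array on its median into 11 higher and 4 lower. Beyond that shift, Uqcrh was 1.08 higher in LL34 scrambled cells and Uqcrq 1.12 lower (a change of −1.12). Cox4i1 measured −0.77 and Cox6a2 −1.97, and with centred arrays these 4 measured 1.38 (Uqcrh), −0.82 (Uqcrq), −0.47 (Cox4i1) and −1.67 (Cox6a2). Uqcrfs1 was 0.22 higher in LL34 scrambled cells (adjusted p = 0.0459). On the deposited values Sdhb, Uqcrb, Uqcrc1 and Uqcrc2 lay 0.05 to 0.16 higher in LL34 scrambled cells (adjusted p of 0.11 or more). These gaps do not take off the median shift of −0.227. With centred arrays 3 genes of complex II and 5 of complex III were called higher in LL34 scrambled cells, against 0 and 2 on the deposited values.

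Helper genes of these complexes moved in both directions. Of 33 measured assembly factors of complexes II, III and IV, 10 rose and 6 fell after NANCI shRNA, and 11 rose and 4 fell after LL34 shRNA. These are 48.5% called after NANCI shRNA against 26.8% of named genes, and 45.5% after LL34 shRNA against 20%. Sdhaf3 and Sdhaf4, which assist assembly of succinate dehydrogenase, rose by 0.93 and 1.15 after NANCI shRNA (adjusted p = 3.58e-05 and 3.52e-05). Sdhaf1, which serves the iron-sulfur subunit, rose by 0.81 after LL34 shRNA (adjusted p = 4.41e-05), and Higd2a, a complex IV assembly factor, measured 0.84 (1.8e-05) and −0.48 (0.0014) in the 2 knockdowns.

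Of 15 regulators of nuclear respiratory genes, 6 rose and 4 fell after NANCI shRNA, and 5 rose and 2 fell after LL34 shRNA. The shares called were 66.7% against 26.8% of named genes, and 46.7% against 20%. Tfam, which packages and transcribes mitochondrial DNA, measured 0.66 (adjusted p = 0.000136) and −0.13 (0.379). The rRNA methyltransferase Tfb1m measured −0.75 and 0.70, the transcription factor of mitochondria Tfb2m 0.48 and −0.79, and Mef2a, a muscle and stress-responsive transcription factor, −0.78 and 0.51, all past the threshold. Tfb2m had 3 rows, of which only the brightest is given. The mitochondrially encoded subunits were not analysed here. Cytochrome c (Cycs), on the brightest of its 5 rows, measured 0.20 (0.105) and 0.02 (0.907). Its testis form Cyct measured 0.05 (0.691) and 0.05 (0.668), and Hccs, which attaches heme to cytochrome c, 0.39 (0.000656) and 0.02 (0.885).

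Complex I and ATP synthase genes were counted in the same way. Of 42 Nduf genes of complex I, assembly factors included, 14 rose and 6 fell after NANCI shRNA, and 20 rose and none was called lower after LL34 shRNA. That is 47.6% called after NANCI shRNA against 26.8% of named genes, and 47.6% after LL34 shRNA, all higher, against 9.77% of named genes called higher. Ndufa4, now counted as a subunit of complex IV, rose by 0.58 (adjusted p = 9.97e-05) and 0.35 (0.0052), while Ndufs3, Ndufs1 and Ndufa10 measured 0.75, 0.76 and 0.58 after NANCI shRNA. Of 18 Atp5 genes of ATP synthase, 7 rose and 1 fell after NANCI shRNA, and 3 rose after LL34 shRNA. The share called was 44.4% against 26.8% of named genes for NANCI, and 16.7% for LL34, below the 20% of named genes. Atp5pb, Atp5a1 and Atp5k rose by 0.58, 0.50 and 0.62 after NANCI shRNA, and Atp5e by 0.58 after LL34 shRNA.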

How the data were processed

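RNA was measured on 12 Affymetrix arrays in 4 groups of 3, from 100 ng of total RNA copied from a poly(T) primer. The authors deposited one log2 signal per probe set and array. Per the submitters' processing notes the tools were oligo, RMA and limma, in versions and an order not given in the sources used here. Values were not centred per gene. Of 41345 rows, 23521 had 1 symbol in the platform annotation, 1814 several and 16010 none. For arrays, their number limits the precision.

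Tests were limma 3.58.1 in R 4.3.3 (with data.table at version 1.17.8) on the deposited log2 values of all rows and 12 arrays, with 4 group means, 8 residual and 2.84 prior degrees of freedom, and Benjamini-Hochberg adjustment over 41345 rows of each comparison (threshold 0.05). A change is the shRNA mean minus the scrambled mean, and SE is its standard error from limma. All 3 arrays of a group were exactly equal in 464 rows of the LL34 shRNA group and 212 of the LL34 scrambled group. On simulated data for the NANCI comparison over 41345 rows, 91% of changes of 1 and 56% of changes of 0.5 were recovered. Only 100 rows were changed by each amount there, against 8228 rows called in the data. The adjustment is stricter with so few changed rows, so these rates do not carry over to the data. Promoter windows were searched in Python 3.11.15 with pandas 2.3.3, and figures drawn with matplotlib 3.10.9.

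Earlier results of these data were known when the members, lists, motifs and rule for naming genes were chosen. By that rule every member is accounted for, single arrays are given for Cox6a2, complex II, isoform groups and called changes of 0.5 or more, and up to 4 genes of each other list are those with the smallest p. Lists of 8 fibroblast, 6 leukocyte and 6 endothelial genes with a row were also counted. After NANCI shRNA they held 0 higher and 1 lower, 1 and 0, and 0 and 1. These are 12.5%, 16.7% and 16.7% called, against 26.8% of all named genes. After LL34 shRNA they held 0 and 0, 0 and 0, and 0 and 1, or 0%, 0% and 16.7% against 20%. Protein sequences were not used here.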

Additional observations from a re-analysis of the deposited data

Results flagged for a closer look

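The change after NANCI shRNA and that after LL34 shRNA differed, by the test of the difference itself, in 10 genes. NANCI change minus LL34 change was −4.82 for Cox6a2 (SE 0.139, limma adjusted p = 2.01e-08), −1.11 for Uqcrq, −1.09 for Uqcrb and −0.95 for Cox5a. It was 1.07 for Uqcrh, 1.06 for Uqcrfs1, 1.01 for Sdhb, 0.76 for Uqcrc1, 0.46 for Cox4i1 and 0.36 for Uqcrc2 (adjusted p of 0.0112 or less). For Cox6a2, Uqcrq, Uqcrh, Cox4i1 and Uqcrfs1 the scrambled groups of the sets also differed on the deposited values. The gaps were −1.97, −1.12, 1.08, −0.77 and 0.22 (LL34 minus NANCI scrambled). On the deposited values the NANCI and LL34 shRNA means nearly coincided for Uqcrh (9.90 and 9.91) and Uqcrq (8.50 and 8.48). For these 2 genes the difference thus lay in the scrambled groups. The shRNA means were 7.97 and 10.82 for Cox6a2, 12.30 and 11.07 for Cox4i1, and 9.04 and 8.21 for Uqcrfs1. The cause of the gaps was not tested. Groups of 3 arrays are too small for a check for single outlying arrays.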

How the results depend on the processing

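After NANCI shRNA the 13 calls were 9 to 14 in 21 alternatives, and 7 genes were called in all of them: Cox5a, Sdhb, Sdhd, Uqcrb, Uqcrc1, Uqcrc2 and Uqcrfs1. In complex III the 8 calls were 5 to 8 when single arrays were left out, with 5 without NANCI shRNA replicate 2. After LL34 shRNA the 7 calls were 4 with arrays centred on their medians, 11 among rows at or above the median level, 11 with a trend of spread on level, 11 with array weights, whose estimation stopped before convergence, and 3 against all 6 scrambled arrays. They ran from 4 to 9 when single arrays were left out, with 4 without LL34 shRNA replicate 3 or LL34 scrambled replicate 1 or 3. Cox7a2l and Sdhd were called in all. Uqcrq after NANCI shRNA turned to 0.25 against all 6 scrambled arrays. Among 624 pairs of a gene and an alternative for each knockdown, 13 after NANCI shRNA and 16 after LL34 shRNA had the opposite sign, with the gene past the threshold in neither fit. With the replicate number as a block, 11 genes were called after NANCI shRNA, 6 after LL34 shRNA, 10 for the difference and 14 between the scrambled groups. Same-numbered arrays did not deviate together (r from −0.125 to 0.0451), so the numbers were not taken to pair samples. Leaving out single arrays gave 10 calls each time for the difference and 12 to 16 between the scrambled groups. The causes of these shifts were not tested.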
